A study of Mus musculus with 24 samples.

Results

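The genes described here are 10 genes of the Nrf2 antioxidant pathway and of heme breakdown: Nfe2l2, Hmox1, Blvra, Blvrb, Nqo1, Gclc, Gclm, Txnrd1, Srxn1 and Slc7a11. They were taken by gene symbol from 2 tables of mouse RNA-seq values that list 46078 genes each, and every symbol matched 1 row in both. The study removed Chd4, the ATPase of the NuRD chromatin-remodelling complex, from muscle stem cells. In culture, satellite cell-derived primary myoblasts from uninjured muscle of C57BL/6 Chd4fl/fl mice were kept proliferating and sampled 72 h after adenovirus coding for Cre (AdCRE, 4 libraries) or for GFP (AdGFP, 4 libraries). In vivo, satellite cells were sorted from injured muscle of C57BL/6 mice 3 days after cardiotoxin, from Chd4dPax7ER mice (4 libraries) and Chd4fl/fl mice (4 libraries). Mice of all groups were 2 to 4 months old. The sort kept cells that lacked SCA1 and CD45 and carried α7-integrin and CD34.

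Limits of the models are the following. Both cultures carried the floxed alleles and Cre came with 1 of the viruses alone, so a response to Cre itself cannot be told apart from loss of Chd4. In vivo only the genotype name Chd4dPax7ER mentions Pax7ER, and the sources used here do not say whether the Chd4fl/fl mice carried Cre or were dosed alike. Nothing in the labels ties the replicate numbers to separate mice or cultures, and the p-values therefore describe spread between these libraries, which may be technical. The series also holds 8 ATAC-seq samples, not analysed here.

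Nrf2, the protein made from Nfe2l2, is normally bound by Keap1, which presents it to a Cul3 ubiquitin ligase for degradation. Oxidants and electrophiles block this step, after which Nrf2 pairs with small Maf proteins on antioxidant response elements, sites that the repressor Bach1 can also occupy. Much of this control acts on the protein, so the Nfe2l2 transcript is not a measure of Nrf2 activity. Heme oxygenase 1 (Hmox1) opens the heme ring to give biliverdin, iron and carbon monoxide, and biliverdin reductases (Blvra, Blvrb) turn biliverdin into bilirubin. Injured muscle is a source of heme, from myoglobin and from red blood cells.

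Promoter windows (250 bases before to 50 bases after a start site, RefSeq, GRCm38.p6) were at hand for 8 of the 10 genes, 11 windows in all, and Hmox1 and Gclc had none. The antioxidant response element core TGACNNNGC, searched on both strands, was found in windows of 5 genes: Nfe2l2, Blvra, Gclm, Txnrd1 and Srxn1. Counted by gene, it occurs in 3781 of 27025 genes of the whole table, and counted by window in 12.4% of 32851 windows. The NF-E2/AP-1 core TGAGTCA, which does not overlap the other motif in these windows, was found in Srxn1 alone. It occurs in 1607 of 27025 genes and in 5.2% of all windows. The stretches below stand upstream of Blvra (chr2:127070407-127070628), Gclm (chr3:122245307-122245486) and Srxn1 (chr2:152105274-152105523), all on the plus strand of GRCm38.p6 and printed 5′ to 3′ up to the base before the first annotated base of the gene. They are shown because Blvra was lower in both settings, Gclm was among the 2 that were higher in vivo, and Srxn1 holds both motifs. Capitals mark the response element core in Blvra and Gclm (on the strand opposite to the gene) and both copies of the NF-E2/AP-1 core in Srxn1. In Srxn1 the copy nearer the start site is followed by GC and reads TGAGTCAGC. That is the response element core with G in place of C after TGA, a form that was not searched.
Blvra: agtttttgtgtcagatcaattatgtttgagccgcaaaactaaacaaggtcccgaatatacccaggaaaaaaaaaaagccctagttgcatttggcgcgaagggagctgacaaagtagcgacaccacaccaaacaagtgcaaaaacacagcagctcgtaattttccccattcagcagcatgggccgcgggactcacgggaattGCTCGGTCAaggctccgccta
Gclm: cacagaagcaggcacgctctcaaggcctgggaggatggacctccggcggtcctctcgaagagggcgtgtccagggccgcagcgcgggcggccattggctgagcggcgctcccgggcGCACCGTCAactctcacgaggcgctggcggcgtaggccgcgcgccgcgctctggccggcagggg
Srxn1: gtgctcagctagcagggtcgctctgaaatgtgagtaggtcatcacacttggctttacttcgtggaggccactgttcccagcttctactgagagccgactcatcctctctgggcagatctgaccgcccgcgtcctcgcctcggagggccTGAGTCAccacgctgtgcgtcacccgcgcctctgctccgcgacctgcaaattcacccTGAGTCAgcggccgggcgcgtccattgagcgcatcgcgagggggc
Counted from the start site of the promoter window, the matches begin 49 bases before it in Blvra, 134 bases before it in Gclm, and 102 and 45 bases before it in Srxn1. In Blvra and Gclm that start site lies downstream of the first annotated base. The stretches printed for them therefore end short of it, at 222 and 180 bases. Srxn1 also has a response element core that begins 28 bases after its start site and is not shown. A match is a run of letters and no evidence of binding, and a window without a match says nothing about sites outside it.

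The targeted gene was checked first. Chd4 stood at 15.8, 23.9, 21.3 and 22.1 RPKM (reads scaled to gene length and to the reads of the library) in AdCRE libraries, against 76.2, 67.8, 70.8 and 85.5 RPKM in AdGFP libraries. In vivo it stood at 64.1, 50.4, 63.8 and 48.7 RPKM in Chd4dPax7ER libraries, against 135, 126, 119 and 126 RPKM in Chd4fl/fl libraries. This is 27.7% of the AdGFP mean (adjusted p = 0.00374) and 44.9% of the Chd4fl/fl mean (adjusted p = 0.000152, limma on log2(RPKM + 0.5), Benjamini-Hochberg adjustment over all genes tested). All 9 satellite cell and myoblast markers, Pax7, Myf5 and Myod1 among them, were detected in both settings. In culture, same-numbered libraries deviated together from their group means (correlation 0.777 to 0.893), so values from a model that also holds the replicate number (the replicate block) are added where they change a call.

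In sorted satellite cells, Hmox1 and Gclm rose and Blvra fell in Chd4dPax7ER libraries, which is 3 of the 9 genes tested. A gene was tested if at least 4 of the 8 libraries had an RPKM of at least 0.5, and passed at an adjusted p under 0.05. Of all 13344 genes tested in vivo, 26.6% passed (14.7% as higher, 11.9% as lower), so the share among these genes is near that of all genes. In culture Blvra alone passed, at a lower level in AdCRE libraries, which is 1 of 10 genes against 0.656% of 13567 genes tested (0.140% as lower). With the replicate block, Blvrb, Gclm, Gclc and Srxn1 were also higher in AdCRE libraries, which makes 5 of 10 genes against 36.2% of all genes (17.5% as higher, 18.7% as lower). The median log2 fold change of the genes was 0.22 in vivo and 0.12 in culture, against -0.02 and -0.01 for all genes tested.

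**Figure D1:**
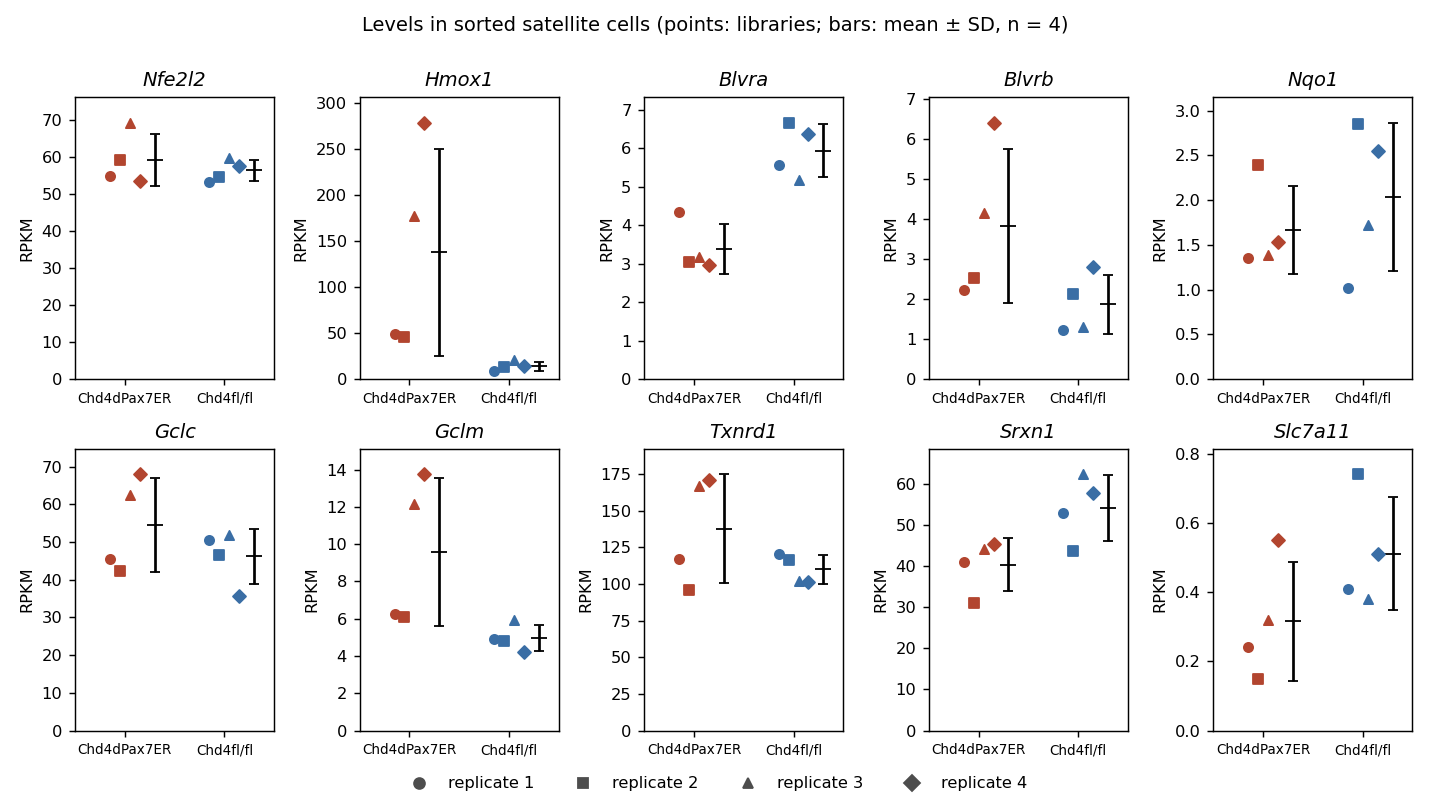
Level of each of the 10 genes (RPKM, y axis from 0, a scale for each panel) in Chd4dPax7ER and Chd4fl/fl satellite cells, with a marker shape per replicate number and mean ± SD of 4 libraries as the black bar. Hmox1 and Gclm lie above, and Blvra below, the Chd4fl/fl libraries with no overlap, and replicates 3 and 4 of Chd4dPax7ER hold the high values of Hmox1, Gclm, Gclc and Txnrd1.

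**Figure D2:**
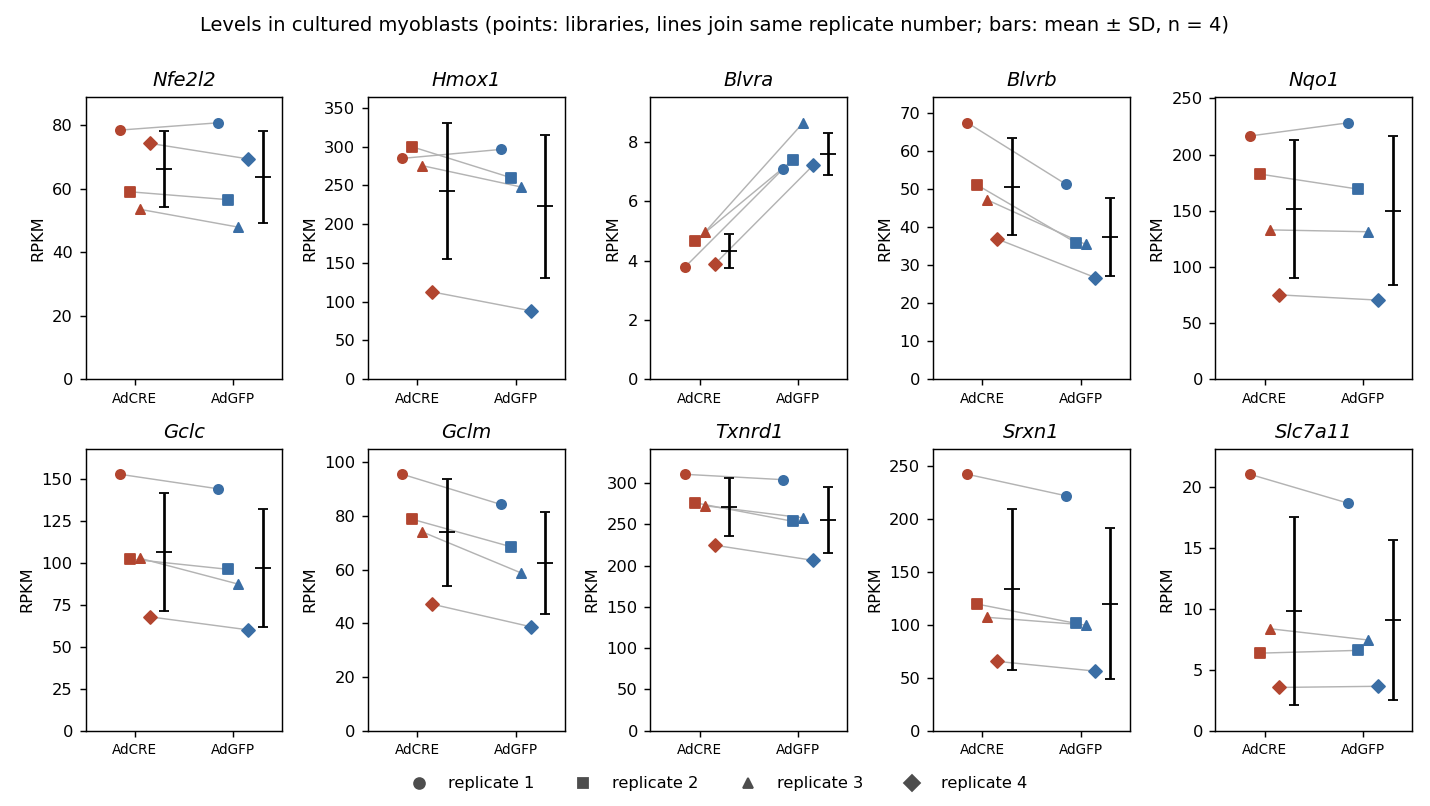
Level of each of the 10 genes (RPKM, y axis from 0, a scale for each panel) in AdCRE and AdGFP myoblasts, with grey lines joining libraries of 1 replicate number and mean ± SD of 4 libraries as the black bar. Blvra lies between 3.78 and 4.95 RPKM in AdCRE libraries and between 7.11 and 8.65 RPKM in AdGFP libraries, and Blvrb, Gclm, Gclc, Srxn1 and Txnrd1 lie higher in each AdCRE library than in its partner, with overlapping groups.

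Heme breakdown held the largest in vivo change of the 10 genes. Hmox1 (ENSMUSG00000005413, chromosome 8, 75093618 to 75100593) had 49.5, 45.2, 177 and 278 RPKM in Chd4dPax7ER libraries, against 8.84, 12.7, 20.8 and 13.9 RPKM in Chd4fl/fl libraries. All 4 Chd4dPax7ER libraries were above the highest Chd4fl/fl library, and 2 of them, replicates 3 and 4, were far above the rest. Hmox1, Gclm and Blvra, 3 of 9, had groups that did not overlap in vivo, as had 30.3% of all genes tested there. The means were 137.6 ± 112 RPKM in Chd4dPax7ER and 14.1 ± 5.00 RPKM in Chd4fl/fl libraries (SD, n = 4 each), a 9.79-fold difference, and the log2 fold change was 2.89 (SE 0.56, adjusted p = 0.00595, limma). Without Chd4dPax7ER replicate 4 the fold of means was 6.45 and the log2 fold change 2.41, and the adjusted p was at most 0.0191 whichever library was left out.

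In culture Hmox1 was already among the most abundant of these transcripts and moved little. It had 285, 299.7, 275 and 113 RPKM in AdCRE libraries, against 296, 260.0, 248 and 88.2 RPKM in AdGFP libraries. Replicate 4 was the low library under both viruses, and the groups overlapped. The AdCRE library was at 96.1 to 128% of its AdGFP partner, and the log2 fold change was 0.16 (95% interval -0.87 to 1.19, adjusted p = 0.909, or 0.0994 with the replicate block).

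The 2 Hmox1 responses were set against each other in 1 limma fit over 16 libraries. The in vivo log2 fold change exceeded the culture one by 2.73 (SE 0.78), which missed the threshold at an adjusted p of 0.0622 and passed at 0.0276 when the culture replicates were blocked. It also passed without AdGFP replicate 4 (0.0364), without Chd4dPax7ER replicate 1 (0.0391) and without Chd4dPax7ER replicate 2 (0.0430). Of 11941 genes tested in both settings, 4.12% passed this test, or 10.8% with the block, and none of the 9 genes passed without the block (1, Hmox1, had an unadjusted p under 0.05).

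Blvra, the main biliverdin reductase of adult tissues (ENSMUSG00000001999, chromosome 2, 127070629 to 127097084), was lower in both settings by nearly the same amount. It had 4.35, 3.04, 3.16 and 2.97 RPKM in Chd4dPax7ER libraries, against 5.55, 6.66, 5.18 and 6.36 RPKM in Chd4fl/fl libraries. In culture it had 3.78, 4.66, 4.95 and 3.87 RPKM in AdCRE libraries, against 7.11, 7.41, 8.65 and 7.21 RPKM in AdGFP libraries. In neither setting did the groups overlap, and groups did not overlap for 10.0% of all genes tested in culture, 6.21% with AdCRE lower. Blvra stood at 56.9% of the Chd4fl/fl mean (log2 fold change -0.74, SE 0.15, adjusted p = 0.00644) and at 56.8% of the AdGFP mean (-0.75, SE 0.11, adjusted p = 0.0291, limma). In the pairs the AdCRE library was at 53.2 to 62.8% of its AdGFP partner.

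The in vivo call for Blvra held whichever library was left out, with an adjusted p of at most 0.0236. The culture call was lost without any 1 of the 8 libraries when pairs were ignored (adjusted p 0.0606 to 0.109), while with the replicate block it stood at 0.000349. The 2 fold changes differed by 0.02 on the log2 scale (95% interval -0.37 to 0.40, adjusted p = 0.977, limma), so a difference of more than about 0.40 in either direction lies outside the interval. Blvra was known to have passed in culture when the genes were chosen, so that call is no independent support for the group.

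Blvrb encodes an NADPH-dependent flavin reductase that also acts on some biliverdin isomers (ENSMUSG00000040466, chromosome 7, 27447978 to 27465981). It had 67.4, 51.0, 47.1 and 36.9 RPKM in AdCRE libraries, against 51.2, 35.9, 35.4 and 26.7 RPKM in AdGFP libraries. The groups overlapped, but each AdCRE library was above its AdGFP partner, by 1.32 to 1.42 times. A shared direction in all 4 pairs was found for 52.3% of genes tested, and a higher AdCRE library in all 4 for 25.1%. The log2 fold change was 0.44 (SE 0.23, adjusted p = 0.399) and passed once replicates were blocked (0.000512, limma).

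In vivo Blvrb had 2.22, 2.52, 4.15 and 6.40 RPKM in Chd4dPax7ER libraries, against 1.23, 2.13, 1.30 and 2.80 RPKM in Chd4fl/fl libraries. The groups overlapped, with replicates 3 and 4 of Chd4dPax7ER the 2 highest. The log2 fold change of 0.82 (SE 0.33, adjusted p = 0.0944, limma) did not pass. Since Blvra was lower, the Blvrb level divided by the Blvra level was 1.20 ± 0.72 in Chd4dPax7ER libraries and 0.308 ± 0.10 in Chd4fl/fl libraries (SD, n = 4 each). In culture the same quotient was 11.97 ± 3.97 in AdCRE and 4.96 ± 1.57 in AdGFP libraries (SD, n = 4 each). The lowest quotient of the Chd4-depleted libraries was above the highest of the controls in both settings (0.510 in Chd4dPax7ER against 0.440 in Chd4fl/fl, and 9.53 in AdCRE against 7.21 in AdGFP libraries), and these quotients were not tested. Blvra alone already separated the groups in both settings and its culture call was known beforehand, so the quotients are no result independent of Blvra.

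**Figure D3:**
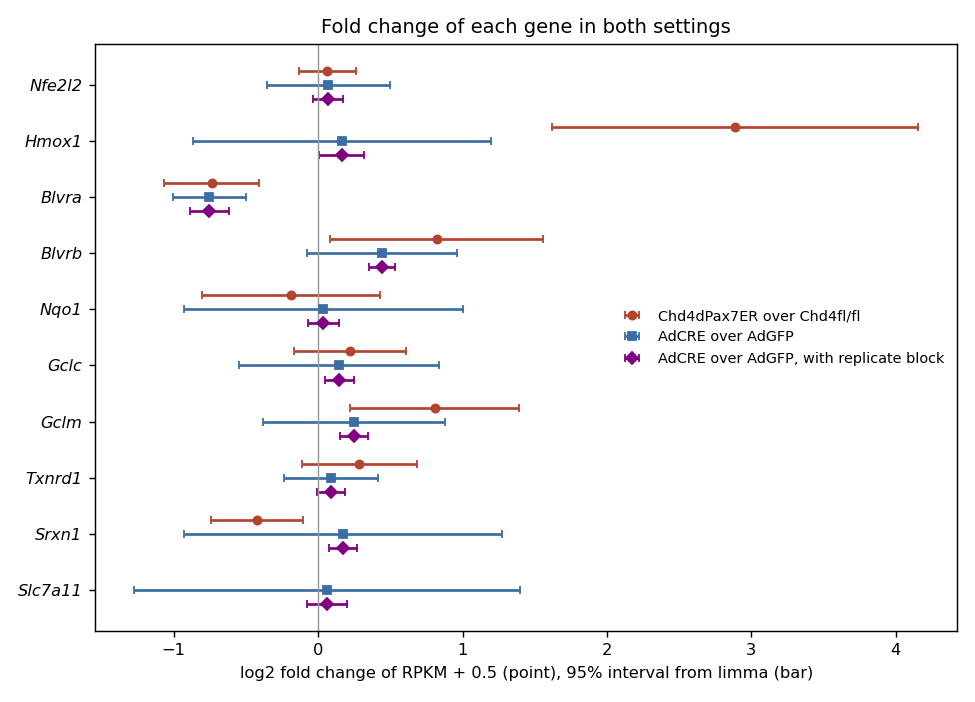
log2 fold change of RPKM + 0.5 (x axis) for each gene, as points with 95% intervals from limma, for Chd4dPax7ER over Chd4fl/fl, AdCRE over AdGFP, and AdCRE over AdGFP with the replicate block. Blvra is at about the same place in all 3 fits, Hmox1 lies at 2.89 in vivo and 0.16 in culture, and the block narrows the culture intervals without moving the points. Slc7a11 has no in vivo point because it was below the level tested.

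Glutathione synthesis rests on glutamate-cysteine ligase, made of a catalytic subunit (Gclc) and a modifier subunit (Gclm), and on cystine that the Slc7a11 transporter brings in. Gclm (ENSMUSG00000028124, chromosome 3, 122245487 to 122267215) had 6.26, 6.12, 12.16 and 13.75 RPKM in Chd4dPax7ER libraries, against 4.89, 4.78, 5.91 and 4.24 RPKM in Chd4fl/fl libraries. The groups did not overlap, though Chd4dPax7ER replicates 1 and 2 were close to the highest Chd4fl/fl library. Gclm rose 1.93-fold in the means, with a log2 fold change of 0.81 (SE 0.26, adjusted p = 0.0469, limma). This call was lost without Chd4dPax7ER replicate 3 or 4 or without any 1 of the Chd4fl/fl libraries (adjusted p up to 0.109), and under 3 other scalings (0.0540 to 0.0560).

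Gclm in culture had 95.5, 78.8, 74.1 and 47.1 RPKM in AdCRE libraries, against 84.3, 68.5, 58.8 and 38.7 RPKM in AdGFP libraries. Each AdCRE library was 1.13 to 1.26 times its partner, and the log2 fold change of 0.25 (adjusted p = 0.734) passed with the replicate block (0.00442, limma).

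Gclc (ENSMUSG00000032350, chromosome 9, 77754535 to 77794489) had 45.5, 42.4, 62.4 and 68.0 RPKM in Chd4dPax7ER libraries, against 50.5, 46.6, 52.0 and 35.8 RPKM in Chd4fl/fl libraries. Replicates 3 and 4 of Chd4dPax7ER were above every Chd4fl/fl library and replicates 1 and 2 within their range, and the log2 fold change of 0.22 did not pass (adjusted p = 0.373, limma). In culture it had 153, 102, 103 and 67.8 RPKM in AdCRE libraries, against 144, 96.1, 87.3 and 60.1 RPKM in AdGFP libraries. Here too each AdCRE library was above its partner, at 106 to 118% of it, and the log2 fold change of 0.15 (adjusted p = 0.874) passed with the block (0.0337), but not when any 1 of the 4 pairs was left out (up to 0.105).

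Slc7a11 (ENSMUSG00000027737) was below the level tested in vivo, at 0.24, 0.15, 0.32 and 0.55 RPKM in Chd4dPax7ER libraries and 0.41, 0.74, 0.38 and 0.51 RPKM in Chd4fl/fl libraries. The groups overlapped. In culture it had 21.1, 6.37, 8.38 and 3.55 RPKM in AdCRE libraries, against 18.7, 6.60, 7.45 and 3.64 RPKM in AdGFP libraries. Replicate 1 stood well above the others under both viruses, and the log2 fold change was 0.06 (adjusted p = 0.978, or 0.442 with the block, limma).

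The thioredoxin side is represented by Txnrd1, cytosolic thioredoxin reductase, and Srxn1, sulfiredoxin, which restores overoxidised peroxiredoxins. Srxn1 (ENSMUSG00000032802, chromosome 2, 152105524 to 152111376), whose promoter stretch carries both copies of the NF-E2/AP-1 core, had 41.0, 31.0, 44.05 and 45.25 RPKM in Chd4dPax7ER libraries, against 52.9, 43.6, 62.3 and 57.7 RPKM in Chd4fl/fl libraries. Each group had 1 library, replicate 2, clearly lowest, and the groups overlapped through the lowest Chd4fl/fl library. The log2 fold change of -0.42 (SE 0.14) just missed the threshold at an adjusted p of 0.0547, and it passed under 3 other scalings (0.0345 to 0.0406) and without Chd4fl/fl replicate 2 (0.0315, limma).

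Srxn1 in culture pointed the other way. It had 242, 119, 107 and 65.4 RPKM in AdCRE libraries, against 222, 101, 99.8 and 56.2 RPKM in AdGFP libraries. Every AdCRE library was above its partner, at 107 to 118% of it, and the log2 fold change of 0.17 (adjusted p = 0.912) passed with the replicate block (0.0184, and 0.0770 and 0.0705 without pair 2 or pair 4). The in vivo change minus the culture change was -0.59 (adjusted p = 0.604, or 0.0466 with the culture replicates blocked, limma).

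Txnrd1 (ENSMUSG00000020250, chromosome 10, 82833951 to 82897724) had 117, 95.6, 167 and 171 RPKM in Chd4dPax7ER libraries, against 121, 116, 102 and 101 RPKM in Chd4fl/fl libraries. As with Gclc, Chd4dPax7ER replicates 3 and 4 were above and replicates 1 and 2 within or below the Chd4fl/fl range (log2 fold change 0.28, adjusted p = 0.268). In culture it had 311, 276, 273 and 225 RPKM in AdCRE libraries, against 304, 254, 258 and 207 RPKM in AdGFP libraries. The log2 fold change was 0.09 (adjusted p = 0.826, or 0.140 with the block, limma).

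Nqo1, a quinone reductase often used as a reporter of Nrf2 activity (ENSMUSG00000003849, chromosome 8, 107388225 to 107403205), did not pass in either setting. It had 1.35, 2.39, 1.39 and 1.53 RPKM in Chd4dPax7ER libraries, against 1.02, 2.85, 1.72 and 2.55 RPKM in Chd4fl/fl libraries. In culture it had 217, 183, 133 and 75.0 RPKM in AdCRE libraries, against 228, 169, 131 and 70.3 RPKM in AdGFP libraries. The groups overlapped in both settings, with a log2 fold change of -0.19 in vivo (95% interval -0.80 to 0.43, adjusted p = 0.653) and of 0.04 in culture with the replicate block (95% interval -0.07 to 0.14, adjusted p = 0.576, limma).

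Nfe2l2 itself (ENSMUSG00000015839, chromosome 2, 75675513 to 75704663) had 54.8, 59.1, 69.15 and 53.4 RPKM in Chd4dPax7ER libraries, against 53.3, 54.6, 59.7 and 57.6 RPKM in Chd4fl/fl libraries. In culture it had 78.5, 59.0, 53.5 and 74.3 RPKM in AdCRE libraries, against 80.8, 56.5, 47.9 and 69.4 RPKM in AdGFP libraries. Groups overlapped in both settings, and the log2 fold change was 0.06 in vivo (95% interval -0.13 to 0.26, adjusted p = 0.631) and 0.07 in culture (with the block -0.03 to 0.17, adjusted p = 0.261, limma). The level of this transcript is compared here, not the amount or location of the protein.

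By level per gene length, the order of the genes was alike in both cultures. Txnrd1 averaged 271 ± 35.3 RPKM in AdCRE and 256 ± 40.0 RPKM in AdGFP libraries (SD, n = 4 each) and led both orders, followed by Hmox1, Nqo1, Srxn1 and Gclc. Ranges of neighbours overlapped down to Blvrb, which stood clear of Slc7a11, and Blvra was last at 4.31 ± 0.58 RPKM in AdCRE and 7.59 ± 0.72 RPKM in AdGFP libraries (SD, n = 4 each). In Chd4dPax7ER satellite cells Txnrd1 (138 ± 37.1 RPKM) and Hmox1 led with overlapping ranges, followed by Nfe2l2, Gclc and Srxn1. In Chd4fl/fl satellite cells Txnrd1 (110.1 ± 9.84 RPKM) stood clear of Nfe2l2, Srxn1 and Gclc, and Hmox1 was the fifth of 10. Both tables were normalized separately, so levels were not tested between them. The largest gaps were for Nqo1, at 1.67 ± 0.49 RPKM in Chd4dPax7ER and 2.04 ± 0.83 RPKM in Chd4fl/fl satellite cells beside 152 ± 61.6 RPKM in AdCRE and 149.8 ± 66.3 RPKM in AdGFP myoblasts (SD, n = 4 each).

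Much of the spread in culture followed the replicate number and not the virus. Replicate 1 was the highest AdCRE library for 8 of the 10 genes and the highest AdGFP library for 9, and replicate 4 was the lowest for 8 genes under each virus. Srxn1 differed 3.95-fold and Slc7a11 5.13-fold between the highest and lowest AdGFP library. In vivo, Chd4dPax7ER replicate 4 was the highest of its group for 7 genes and replicate 2 the lowest for 6.

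The regulators of Nrf2 were followed in a list of 9 genes, 8 of them tested in each setting. Of all genes tested in vivo, 26.6% passed. Nfe2l1, a relative of Nrf2 that controls proteasome genes, rose in vivo by 0.68 on the log2 scale (adjusted p = 0.00277). The small Maf genes moved apart, Maff rising by 0.74 (adjusted p = 0.0419) and Mafg falling to a log2 fold change of -0.29 (adjusted p = 0.0299). These calls were lost without 5 and 6 of the 8 libraries in turn (up to 0.104 and 0.0765). The Maff call was also lost under TPM scaling (0.0556, limma). The other 5 did not pass, with log2 fold changes of 0.01 for Keap1, -0.10 for Cul3, 0.13 for Rbx1, -0.14 for Bach1 and 0.41 for Mafk. In culture none of the 8 passed (0 had an unadjusted p under 0.05), and with the replicate block Nfe2l1 was higher in AdCRE libraries (0.26, adjusted p = 0.00327, limma). The other 7 culture log2 fold changes were -0.06 for Keap1, 0.06 for Cul3, 0.0049 for Rbx1, 0.10 for Bach1, -0.03 for Mafg, 0.09 for Maff and -0.02 for Mafk.

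Among 24 other known Nrf2 targets, 23 were tested in vivo, of which 8 rose, 1 fell and 14 did not pass (median log2 fold change 0.23). Of all genes tested in vivo, 14.7% passed as higher and 11.9% as lower. Ephx1, microsomal epoxide hydrolase, rose most. It had 27.5, 38.1, 32.4 and 26.5 RPKM in Chd4dPax7ER libraries, against 8.18, 8.84, 11.6 and 8.65 RPKM in Chd4fl/fl libraries, with no overlap (log2 fold change 1.68, adjusted p = 0.000120). Slc48a1, a heme transporter of the endolysosome, rose by 1.25 (adjusted p = 0.00124) and Abcc4, an efflux pump for conjugates and cyclic nucleotides, by 0.85 (adjusted p = 0.00709). The gene that fell was Gsta4, a glutathione transferase for lipid aldehydes, at -1.33 (adjusted p = 0.00646, limma).

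In culture Ephx1 was again higher, at 45.5, 30.5, 30.3 and 33.4 RPKM in AdCRE libraries, against 20.2, 12.7, 10.7 and 14.9 RPKM in AdGFP libraries. The groups did not overlap. Its log2 fold change of 1.24 passed (adjusted p = 0.0433, limma) and was the only call of the 23 tested, against 0.656% of all genes. This call was lost on leaving out any 1 library but AdGFP replicate 1 (up to 0.141), and under TPM scaling (0.0548, limma). With the replicate block 11 of the 23 were higher and 4 lower (median log2 fold change 0.17), against 17.5% and 18.7% of all genes.

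Of 13 genes of heme synthesis and transport, 3 rose, 2 fell and 8 did not pass in vivo. Among all genes tested there, 14.7% rose and 11.9% fell. Alas1, the rate-limiting enzyme of heme synthesis outside the erythroid lineage, had 11.7, 12.3, 13.7 and 9.91 RPKM in Chd4dPax7ER libraries, against 6.08, 6.09, 5.65 and 6.81 RPKM in Chd4fl/fl libraries. The groups did not overlap (log2 fold change 0.89, adjusted p = 0.000883). Flvcr1, a membrane transporter listed here under heme transport, fell to a log2 fold change of -0.77 (adjusted p = 0.00652). Transport itself was not measured. Calls were less stable for Ppox, at -0.63 (adjusted p = 0.0263), and for Uros, at 0.56 (0.0314), both enzymes of the synthesis, and were lost without 6 and 5 of the 8 libraries in turn (up to 0.0704 and 0.0760, limma). In culture none of the 13 passed (1 at an unadjusted p under 0.05). With the block 3 were higher and 2 lower, against 17.5% and 18.7% of all genes.

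Glutathione and peroxide enzymes moved in a few members each. Of 12 glutathione genes tested in vivo, 4 rose, 1 fell and 7 did not pass, while 14.7% of all genes rose and 11.9% fell. Gstt1, a theta-class transferase, had 16.5, 18.5, 11.9 and 12.7 RPKM in Chd4dPax7ER libraries, against 3.51, 4.35, 3.38 and 3.46 RPKM in Chd4fl/fl libraries (log2 fold change 1.87, adjusted p = 0.000111), and was at most 0.11 RPKM in any culture library. Gstm2 rose by 1.24 (adjusted p = 0.00222), Gpx4, which reduces lipid peroxides, by 0.55 (0.0116) and Slc3a2, the partner chain of Slc7a11 and other amino acid transporters, by 0.45 (0.00427, limma). Reads of Gstm1 and Gstm2, close copies, may not be fully separated.

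Of 12 genes for thioredoxins, peroxiredoxins, superoxide dismutases and catalase, 3 rose, 1 fell and 8 did not pass in vivo. Among all genes, 14.7% rose and 11.9% fell. Prdx5 rose by 0.99 (adjusted p = 0.000314) and mitochondrial Prdx3 by 0.40 (0.0119). The extracellular dismutase Sod3 was higher by 1.65 (0.0291) and Prdx2 lower at -0.22 (0.0452, limma), calls that were lost without 4 and 6 of the 8 libraries in turn (up to 0.0757 and 0.108). In culture no gene of either list passed in limma (3 and 1 had an unadjusted p under 0.05). With the block 4 of 11 glutathione genes were higher and 2 lower, and 2 of 11 in the other list were higher and 2 lower. Of all genes, 17.5% were higher and 18.7% lower with the block.

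**Figure D4:**
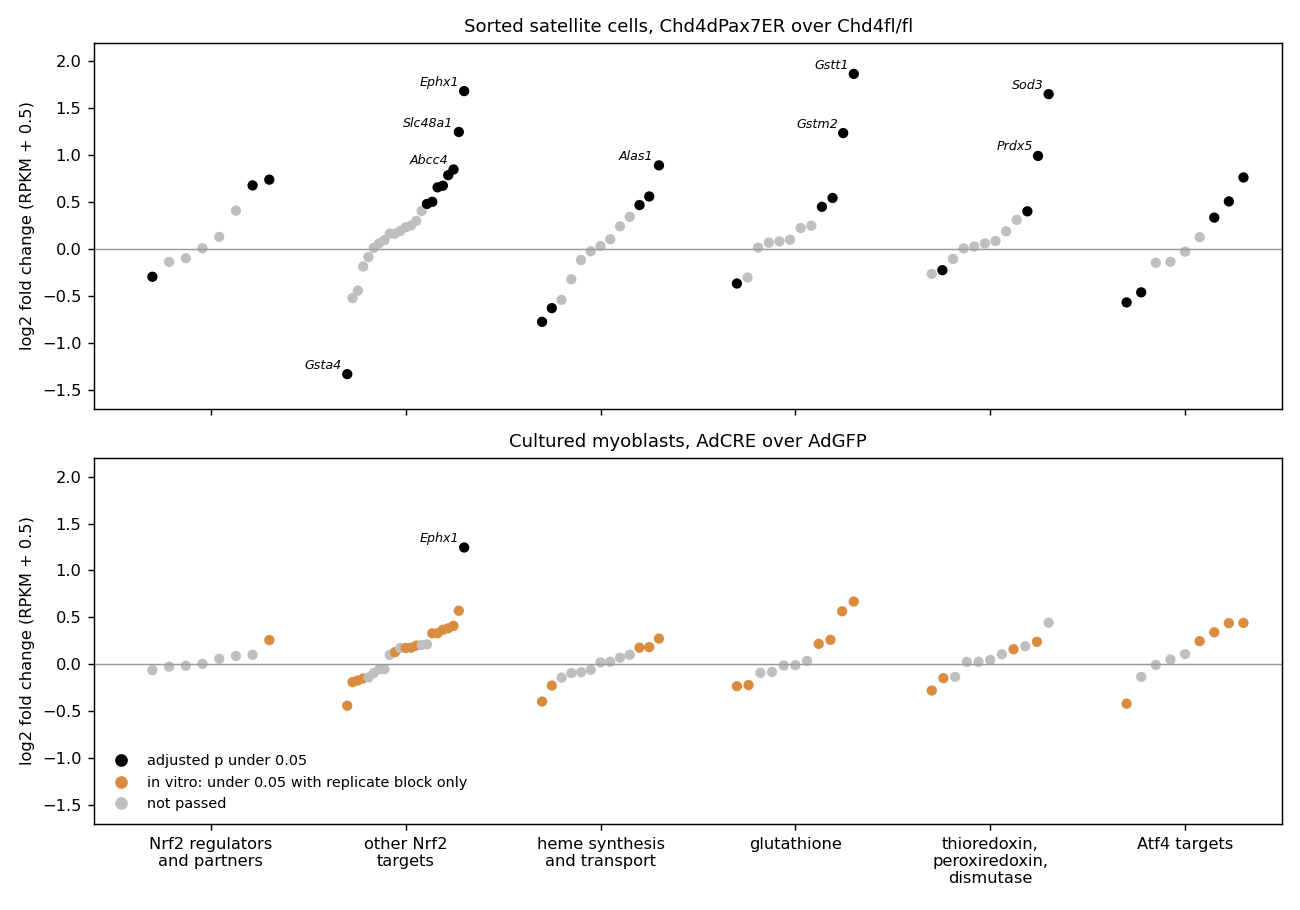
log2 fold change (y axis, RPKM + 0.5) of every tested gene in 6 lists, sorted within each list, in vivo above and in culture below. Black points passed at an adjusted p under 0.05, orange points passed in culture with the replicate block only, grey points did not pass, and names are given for called genes beyond 0.8 in either direction. In vivo called genes lie on both sides of 0 in every list, and in culture Ephx1 is the single black point.

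In bulk RNA, fewer cells of a type and less RNA per cell cannot be told apart. The 11 macrophage and leukocyte markers summed to 138, 211, 162 and 99.8 RPKM in Chd4dPax7ER libraries, against 102, 93.2, 77.6 and 152 RPKM in Chd4fl/fl libraries, with Lyz2 the highest. The groups overlapped, with Chd4dPax7ER replicate 2 the highest and Chd4fl/fl replicate 3 the lowest, and the part of these cells in the level of Hmox1 was not tested. Of 10 markers tested Laptm5 alone passed (log2 fold change 1.01, adjusted p = 0.00659, limma), beside 26.6% of all genes tested. Ptprc, which encodes the CD45 that the sort selected against, was at most 0.59 RPKM.

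Some markers of other cells did move with genotype. The share of all genes that passed in vivo was 26.6% (14.7% as higher, 11.9% as lower). The 5 fibroblast and fibro-adipogenic progenitor markers summed to 146 to 261 RPKM in Chd4dPax7ER libraries, against 18.1 to 33.0 RPKM in Chd4fl/fl libraries. Col1a1, Dcn and Lum passed, and Pdgfra (adjusted p = 0.180) and Ly6a (0.191, limma) did not. Ly6a, which encodes the SCA1 that the sort selected against, had 6.96, 12.96, 6.54 and 8.99 RPKM in Chd4dPax7ER libraries. In Chd4fl/fl libraries it had 1.83, 8.53, 4.29 and 7.43 RPKM. Mature myofibre markers summed to 179 to 445 RPKM in Chd4dPax7ER against 71.5 to 118 RPKM in Chd4fl/fl libraries, and 6 of 6 tested rose. Endothelial markers summed to 3.82 to 10.9 RPKM in Chd4dPax7ER against 3.06 to 5.79 RPKM in Chd4fl/fl libraries, and the 1 tested did not pass. Erythroid markers summed to 0.76 to 4.03 RPKM in Chd4dPax7ER libraries and 0 to 0.69 RPKM in Chd4fl/fl libraries, and Hba-a1 passed but is listed at 0 in every Chd4fl/fl library. Of 9 satellite cell markers, which summed to 1111 to 1338 RPKM in Chd4dPax7ER against 687 to 865 RPKM in Chd4fl/fl libraries, Myod1, Des, Itga7 and Sdc4 rose and Pax7 fell. Of these marker calls, Sdc4, Pax7, Ckm and Pvalb were each lost without 4 to 6 of the libraries in turn. Sdc4 was also lost under TPM and quantile scaling (adjusted p up to 0.0949, limma). The part of these shifts in the changes of Hmox1, Gclm and Blvra was not tested.

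In culture, Adgre1 and C1qa were listed at 0 in every library and Ptprc was at most 0.0043 RPKM. The leukocyte list nevertheless summed to 19.0 to 29.0 RPKM in AdCRE and 7.08 to 12.2 RPKM in AdGFP libraries, with Laptm5 and Cd68 the highest. Of the 3 tested none passed in limma, and with the replicate block Laptm5 (adjusted p = 0.000134) and Cd68 (0.000700) were higher. Fibroblast markers summed to 11.3 to 17.0 RPKM in AdCRE and 2.15 to 4.83 RPKM in AdGFP libraries, with Ly6a and Col1a1 passing. These calls were lost without 2 and 7 of the 8 libraries in turn (adjusted p up to 0.0557 and 0.0782, limma). Col1a1 had 0.71, 1.93, 1.36 and 1.12 RPKM in AdCRE libraries, against 0.04, 0.07, 0.05 and 0.09 RPKM in AdGFP libraries. It reached the level tested only through the AdCRE libraries. Myofibre markers summed to 108 to 597 RPKM in AdCRE and 76.4 to 497 RPKM in AdGFP libraries. Of the 7 tested none passed in limma, and with the replicate block 5 were higher and 0 lower. Endothelial markers summed to 1.67 to 2.63 RPKM in AdCRE and 0.85 to 1.16 RPKM in AdGFP libraries, and erythroid markers to at most 0.168 RPKM in any library. Of 2 endothelial markers tested none passed in limma, and Tek was higher with the block (adjusted p = 0.00125). Satellite cell and myoblast markers summed to 1248 to 1581 RPKM in AdCRE and 1270 to 1343 RPKM in AdGFP libraries. None of the 9 passed in limma. With the replicate block Cd34 (log2 fold change -1.02, adjusted p = 0.00129), Myf5 (-0.54, 0.00104) and Vcam1 (-0.29, 0.0131) were lower and 0 higher. Of all genes tested in culture, 17.5% were higher and 18.7% lower with the block. The part of these marker shifts in the culture values of Blvra was not tested.

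**Figure D5:**
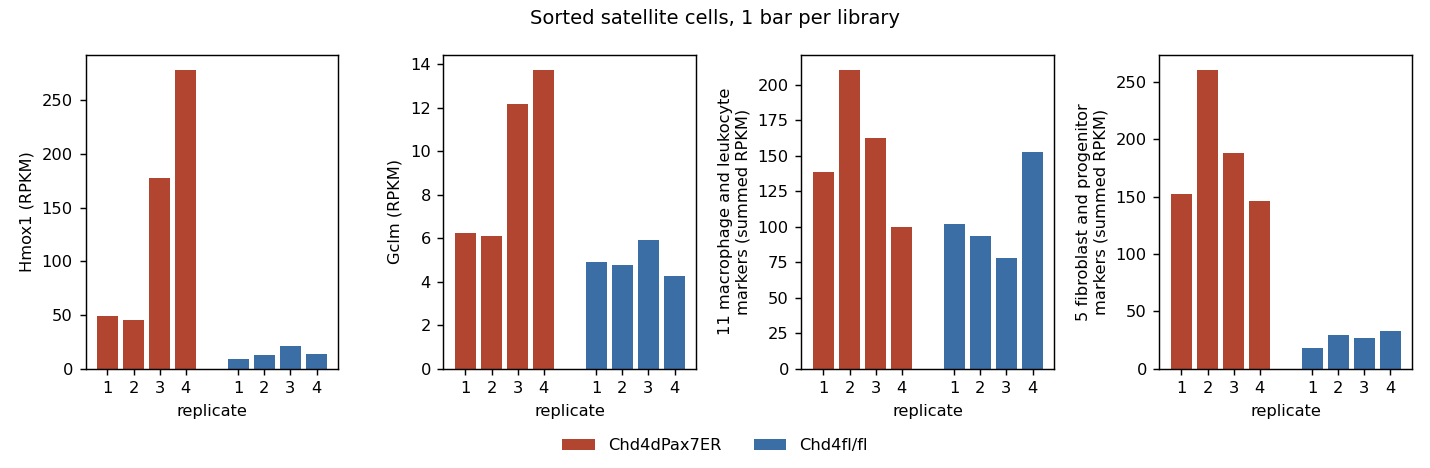
Hmox1, Gclm and the summed markers of 2 other cell classes (RPKM, y axes from 0) in each sorted library, 1 bar per library, Chd4dPax7ER before Chd4fl/fl. Hmox1, Gclm and the fibroblast sums lie higher in all 4 Chd4dPax7ER libraries than in any Chd4fl/fl library, while the leukocyte sums of the groups overlap, at 99.8 to 211 RPKM in Chd4dPax7ER and 77.6 to 152 RPKM in Chd4fl/fl libraries.

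For the 3 genes that passed, the genes with the most similar pattern were sought among 11902 others, as the smallest root mean square difference over 16 libraries in log2 level relative to the control mean of the same table. For Hmox1 they were Tas1r1 (0.76) and Cadm4 (0.77), against a median of 1.66 over all genes. For Blvra they were Gcat (0.13) and Arsb (0.14), whose log2 fold changes were -0.71 and -0.72 in vivo and -0.65 and -0.66 in culture. For Gclm they were Clec16a (0.23) and the listed Nrf2 target Osgin1 (0.24). Osgin1 rose by 0.66 in vivo (adjusted p = 0.0480, limma) and had a log2 fold change of -0.05 in culture. Its in vivo call was lost without 6 of the 8 libraries in turn and under 3 other scalings (up to 0.0641).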

How the data were processed

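RNA-seq of 16 mouse libraries was used, in 4 groups of 4. The authors deposited 1 table of RPKM values per setting, already divided by gene length and library reads. The submitters' processing notes name HISAT2 2.1.0, cutadapt 1.18 and the build GRCm38, and the program that counted reads and the gene lengths used are not stated there. In vivo values are rounded to 2 decimals, and 2 blank lines were left out. Totals were 288659 to 326812 RPKM per library in culture and 286802 to 306114 RPKM in vivo. Low values in culture move in steps of 1 read and gave relative depths of 0.80 to 1.31 (AdCRE replicate 1 as 1), and depth in vivo is unknown.

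Values were taken as log2(RPKM + 0.5), which understates changes of low genes. Genes at 0.5 RPKM or more in at least 4 of 8 libraries were fitted within each table with limma 3.58.1 (R 4.3.3, variance trend), and p-values were adjusted over all genes tested. The fits were tested on simulated data drawn without a replicate effect, so the pairing of the culture libraries was not part of that test. Replicate numbers paired the libraries in culture (correlation 0.777 to 0.893) but not in vivo (-0.124 to 0.0249). Named genes are the 10 genes and Chd4, all tested regulators, the up to 4 largest calls of each other list, passing and highest cell markers, and 2 nearest genes per called gene. Gstp1 and Txnrd2 each matched 2 rows and were left out. The genes and lists were chosen with earlier results of these data known. Other pseudocounts, filters, scalings, the block and leaving out each library were tried. ATAC-seq was not analysed here.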

Additional observations from a re-analysis of the deposited data

Results flagged for a closer look

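Within groups of 4 libraries, 2 values stood apart from the other 3 by Dixon's test at the 95% level. Hmox1 in AdCRE replicate 4 was 113 RPKM (112.539), against 275 to 299.7 RPKM in the other 3 AdCRE libraries, and the AdGFP library of the same number was likewise low at 88.2 RPKM. Blvra in Chd4dPax7ER replicate 1 was 4.35 RPKM, against 2.97 to 3.16 RPKM in the other 3, and was still below every Chd4fl/fl library. Chance flags about 1 in 20 groups, and 40 groups were examined.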

How the results depend on the processing

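Blocking by replicate number moved the count of called genes in culture to 4907, against 89 without it, and of the 10 genes to 5, against 1. With 1 pair left out as well, an alternative chosen after seeing the data, 3825, 3720, 3814 and 3157 genes passed without pair 1, 2, 3 and 4, with 3 to 5 of the 10. For the difference between settings, 492 genes and 0 of the 9 passed without a block, 1688 and 2 with a block in both settings, and 1294 and 2 with a block in culture only (added after seeing the data). In vivo, where the numbers do not pair the libraries, 2878 genes and 4 of the 9 passed with the block: Srxn1 (adjusted p = 0.0100) and Blvrb (0.0468) joined Hmox1 and Blvra, and Gclm missed it (0.0519).

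Leaving out each library in turn without the block gave 16 to 44 called genes and 0 of the 10 in culture, 2597 to 3182 genes and 2 to 3 of the 9 in vivo, and 260 to 532 genes and 0 to 1 for the difference. The Blvra difference turned to -0.022 under TPM scaling, -0.0454 under median scaling and -0.0451 under quantile scaling. Values near 0 changed sign on leaving out 1 library. In culture the log2 fold changes ran from -0.057 to 0.19 for Nfe2l2, -0.28 to 0.34 for Nqo1, -0.0602 to 0.36 for Gclc, -0.17 to 0.52 for Srxn1, -0.38 to 0.47 for Slc7a11, -0.24 to 0.50 for Hmox1 and -0.0088 to 0.18 for Txnrd1. In vivo Nfe2l2 ran from -0.0127 to 0.11. The difference ran from -0.13 to 0.12 for Nfe2l2, -0.0963 to 0.0778 for Blvra, -0.14 to 0.28 for Gclc and -0.53 to 0.10 for Nqo1. Hmox1 and Blvra passed in vivo under all 17 alternatives tried. In vivo Gclm missed the threshold under 12 of 17, also with no filter (0.0842) and with no variance trend (0.0634). The causes were not tested.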

Other observations

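Slc7a11 is also a target of Atf4, the factor of the amino acid stress response, and 10 genes of that response were followed, 9 of them tested in each setting. In vivo 3 rose, 2 fell and 4 did not pass, while 14.7% of all genes tested rose and 11.9% fell. Ddit3, a transcription factor of the stress response, was higher by 0.76 on the log2 scale (adjusted p = 0.0343) and Sesn2, a leucine sensor, by 0.51 (0.0308). Phgdh, the first enzyme of serine synthesis, was lower at -0.57 (0.0132) and asparagine synthetase, Asns, at -0.46 (0.0389, limma). The calls for Ddit3, Sesn2 and Asns were lost without 6, 5 and 5 of the 8 libraries in turn (up to 0.0812, 0.0806 and 0.0934). In culture none of the 9 passed (0 at an unadjusted p under 0.05, limma). With the replicate block 4 were higher and 1 lower in AdCRE libraries, against 17.5% and 18.7% of all genes.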
